A study of Mus musculus with 9 samples.

Results

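Egfl6, Npnt and Itga8, the genes for the secreted protein EGFL6, for nephronectin and for the integrin α8 chain that binds nephronectin, were followed across the estradiol (E2) doses of this series. They were 3 of 19938 genes measured, each with 1 probeset on the array, and the set was chosen by the difference between 100 pM E2 and vehicle, in which Egfl6 had the largest fall of all genes. The cells were urogenital sinus mesenchyme, which gives rise to the prostate stroma, taken from male CD-1 mouse fetuses on gestation day 17, freed of epithelium by settling and used at first passage. In every group the cells had 3 days in charcoal-stripped serum with 690 pM dihydrotestosterone (DHT), followed by 4 days of treatment with the DHT kept on. The groups were vehicle (0.05% ethanol in the sample names, with a higher percentage in the treatment label), 10 pM 17beta-estradiol and 100 pM 17beta-estradiol, each with 3 arrays, and no group was without androgen. The sources give 3 replicate samples for each treatment but not whether these came from separate cell preparations, and the p-values may therefore reflect technical spread alone.

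EGFL6 and nephronectin are close relatives. Both are secreted matrix proteins built of EGF-like repeats, an Arg-Gly-Asp (RGD) integrin-binding motif and a MAM domain at the end of the chain. Nephronectin lies in basement membranes, the thin matrix sheets under epithelia, and is a principal ligand of integrin α8β1, which mesenchymal and smooth muscle cells carry. In the embryonic mouse kidney, nephronectin from the ureteric bud epithelium and α8β1 on the surrounding mesenchyme together allow the bud to invade. EGFL6 is also described as an RGD ligand of α8β1.

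The 3 genes lie on different chromosomes. On the GRCm38.p6 assembly, Egfl6 spans chrX:166523007-166585716, Npnt chr3:132881745-132950291 and Itga8 chr2:12106632-12301985, all read from the minus strand. The DNA just before each start is shown, and motifs of steroid receptors and general promoter motifs were searched in it. It comes from RefSeq on that build, and each run reads 5′ to 3′ towards the gene and ends where the annotated gene begins. Capitals mark estrogen response element half-sites (GGTCA) and Sp1 GC boxes (GGGCGG) on either strand.
Egfl6, chrX:166585717-166585966, minus strand: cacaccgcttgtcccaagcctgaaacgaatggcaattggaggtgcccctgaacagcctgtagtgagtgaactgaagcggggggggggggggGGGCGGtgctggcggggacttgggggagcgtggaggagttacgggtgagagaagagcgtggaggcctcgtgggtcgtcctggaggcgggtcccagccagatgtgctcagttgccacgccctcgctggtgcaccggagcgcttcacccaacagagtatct
Npnt, chr3:132950292-132950541, minus strand: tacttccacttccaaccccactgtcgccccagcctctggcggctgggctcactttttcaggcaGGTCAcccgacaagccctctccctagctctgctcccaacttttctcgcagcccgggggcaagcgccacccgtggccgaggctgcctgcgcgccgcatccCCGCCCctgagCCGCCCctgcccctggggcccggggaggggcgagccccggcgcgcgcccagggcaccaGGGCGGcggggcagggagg
Itga8, chr2:12301986-12302194, minus strand: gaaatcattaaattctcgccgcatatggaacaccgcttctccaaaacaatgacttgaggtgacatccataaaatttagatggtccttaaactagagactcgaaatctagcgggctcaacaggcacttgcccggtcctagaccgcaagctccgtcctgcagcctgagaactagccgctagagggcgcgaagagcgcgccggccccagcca
The Egfl6 stretch of 250 bases held 1 GC box, at the end of a run of G. It had no half-site, a motif found in 35.2% of the 32851 mouse promoter windows of 250 bases, whereas GC boxes were found in 32.7% of them. The Npnt stretch held 1 half-site and 3 GC boxes, and the 250 bases before the Itga8 start held neither motif, of which the 209 outside the annotated gene are printed. The full palindromic estrogen response element, found in 0.0639% of windows, was in none of these 3 windows. Nor was the androgen half-site (TGTTCT, 16.1% of windows), an AP-1 site (TGANTCA, 6.75%) or a TATA box (TATAAA, 12.4%), each searched on both strands. A second annotated Npnt start had none of the motifs before it. These are letter matches, and the absence of a match concerns these windows alone.

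Expression of Egfl6 was high in vehicle and at 10 pM E2 and low at 100 pM E2. On the log2 scale the vehicle arrays had 7.31, 7.19 and 7.41, the 10 pM arrays 7.09, 7.17 and 7.22, and the 100 pM arrays 6.01, 5.56 and 5.84. The 100 pM arrays thus lay below all 6 others, with the lowest value in the second, while the vehicle and 10 pM arrays overlapped. Means were 7.30 ± 0.11 in vehicle, 7.16 ± 0.07 at 10 pM and 5.80 ± 0.23 at 100 pM (SD, n = 3 each), so the spread was widest in the group with the lowest signal.

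**Figure D1:**
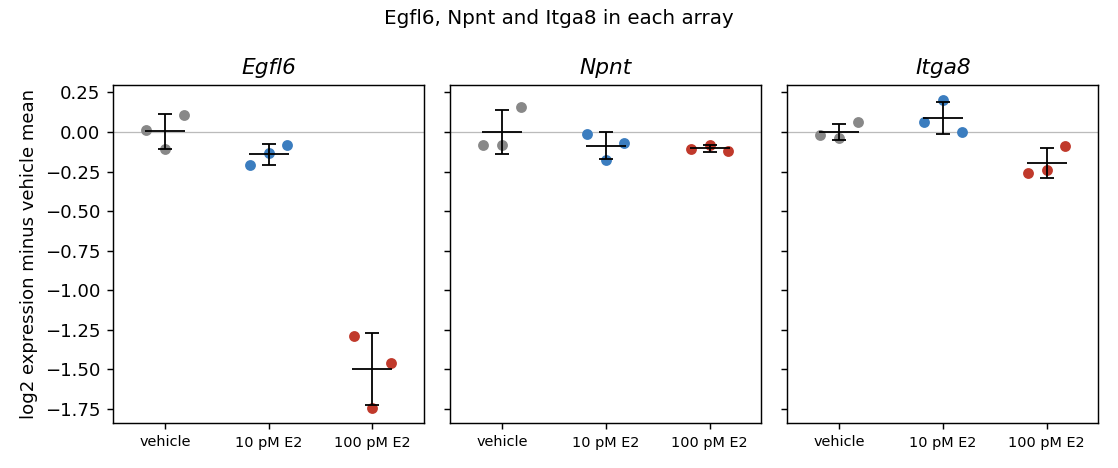
Log2 expression minus the vehicle mean of the same gene (y axis) for Egfl6, Npnt and Itga8 by group, from vehicle through 10 pM to 100 pM E2 (x axis). Each point is an array, and each bar gives a group mean with its SD (n = 3). Egfl6 lay between -1.74 and -1.29 at 100 pM, whereas no array of Npnt or Itga8 was lower than -0.26.

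The difference between 100 pM E2 and vehicle was -1.5 ± 0.11 on the log2 scale for Egfl6 (SE of the limma fit), which is 2.82-fold lower at 100 pM. This value chose the gene and carries no test here. Next in the order of falls came Eln, the elastin gene (-1.34 ± 0.09), Il33, an alarmin cytokine (-1.32 ± 0.14), and Fmo2, a flavin monooxygenase (-1.01 ± 0.12). Against 10 pM E2 the Egfl6 difference at 100 pM was -1.36 ± 0.11, a comparison that shares the 100 pM arrays and is likewise only described. At 10 pM E2 the difference from the same vehicle arrays was -0.14 ± 0.11. Those vehicle arrays also served to choose the gene, so this value too is only described. Without the second 100 pM array the difference from vehicle was -1.37, and without the first it was -1.60.

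Itga8, which encodes the α chain of the receptor and pairs with the β1 chain only, had 7.55, 7.53 and 7.63 in vehicle, 7.63, 7.77 and 7.58 at 10 pM and 7.31, 7.33 and 7.48 at 100 pM. Its 100 pM arrays also lay below all 6 others, by a margin of 0.05 to the lowest vehicle array and 0.09 to the lowest 10 pM array. For 3.82% of all genes the 100 pM arrays lay below all others in this way. Group means were 7.57 ± 0.05, 7.66 ± 0.10 and 7.37 ± 0.09 in the order of dose (SD, n = 3 each).

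For Itga8 the difference between 100 pM and 10 pM E2 was -0.28 ± 0.06, or 1.22-fold lower at 100 pM. This did not pass the threshold (limma, Benjamini-Hochberg adjusted p = 0.104 over all genes, unadjusted p = 0.00163, 95% interval -0.43 to -0.14). Of Npnt and Itga8, 0 were called in that comparison, against 0.833% of all genes called in either direction and 0.607% called lower. Arrays at 100 pM lay below every 10 pM array for 6.42% of all genes. Against vehicle the 100 pM difference was -0.20 ± 0.06, given without a test because the comparison is the one that chose the genes. The 10 pM arrays differed from vehicle by 0.09 ± 0.06 (adjusted p = 1, 95% interval -0.06 to 0.23). The adjusted p for 100 pM against 10 pM lay between 0.0646 and 0.335 when each array was left out in turn.

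Npnt, the gene for nephronectin, varied little between groups. Its values were 6.54, 6.54 and 6.79 in vehicle, 6.61, 6.44 and 6.55 at 10 pM, and 6.52, 6.54 and 6.50 at 100 pM. All 3 groups overlapped, and the third vehicle array was the highest of the 9. The difference was -0.01 ± 0.07 between 100 pM and 10 pM E2 (adjusted p = 0.974, 95% interval -0.17 to 0.15) and -0.09 ± 0.07 between 10 pM E2 and vehicle (adjusted p = 1, 95% interval -0.25 to 0.07). Between 100 pM E2 and vehicle it was -0.10 ± 0.07, and -0.02 without the third vehicle array. The values of the first and second vehicle arrays and of the second 100 pM array were equal to 5 decimals, and 49.3% of all genes had such a tie of 3 or more arrays. What such ties do to the spread of Npnt was not tested.

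Over the 3 genes, the 100 pM arrays lay below all vehicle arrays for 2, Egfl6 and Itga8, and for 5.89% of all genes, in the comparison that served to choose them. At 10 pM E2 the arrays overlapped with vehicle for each of the 3, whereas 5.93% of all genes did not overlap (2.19% lower at 10 pM), and limma called 0 of all 19938 genes at that dose (705 had an unadjusted p below 0.05, and an analysis of variance called 0 after adjustment). A probeset's signal was not set against a measured background here. Whether Npnt at these levels, or Egfl6 at 100 pM E2 (5.56 to 6.01), was above background was therefore not tested. These Egfl6 values lay below the array medians of 6.17 to 6.2. Whether a floor of the signal limited the size of the Egfl6 fall was not tested.

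Genes that followed Egfl6 most closely over the 9 arrays were Clip4, of the CAP-Gly linker protein family (Pearson r = 0.993), Igfbp3, an IGF-binding protein (r = 0.991), Stra6, the receptor for retinol-binding protein (r = 0.990), Sema3d, a secreted semaphorin (r = 0.990), and Sulf1, an extracellular sulfatase of heparan sulfate (r = 0.990). They were taken from 9968 genes whose SD over the arrays was at or above the median. For these genes the 9 points fell into the 100 pM arrays and the rest, so that r over all arrays largely restates the group difference. After each group's mean was subtracted, r was 0.855, 0.954, 0.816, 0.785 and 0.869 in the same order. The second 100 pM array was the lowest of the 9 for each of these genes as for Egfl6. Their own differences between 100 pM E2 and vehicle lay between -0.89 for Igfbp3 and -0.64 for Clip4.

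**Figure D2:**
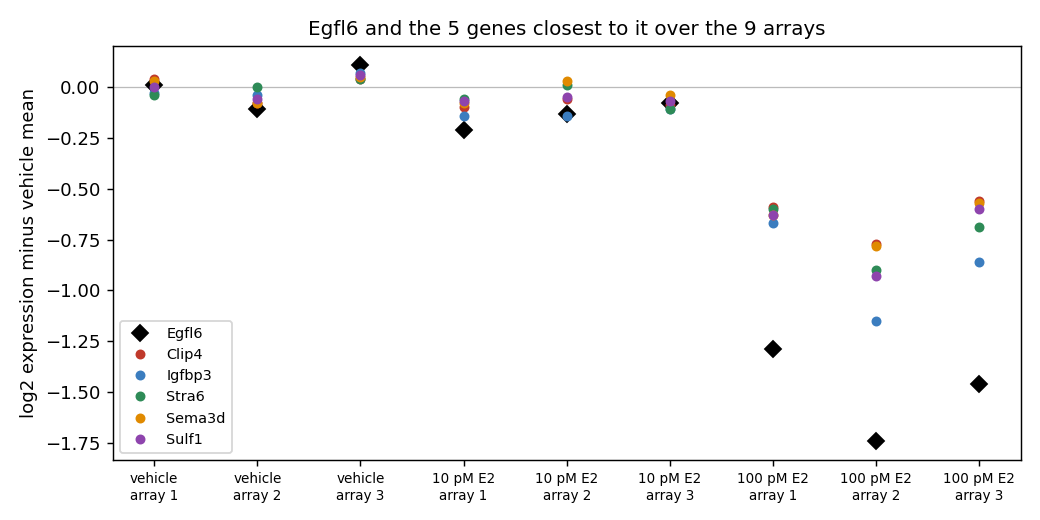
Log2 expression minus the vehicle mean of the same gene (y axis) in each of the 9 arrays (x axis) for Egfl6 (diamonds) and the 5 genes of highest Pearson r with it (circles). The arrays of a group have no order. In the second 100 pM array Egfl6 was at -1.74 and Igfbp3 at -1.15, the lowest values of both genes.

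Closest to Itga8 were Adamts6, a secreted metalloprotease (r = 0.963), Nectin2, a cell adhesion molecule (r = 0.958), Zfp799, a zinc finger gene (r = 0.957), Niban1 (r = 0.955) and Cpd, carboxypeptidase D (r = 0.953). Their differences between 100 pM E2 and vehicle lay between -0.20 and -0.11, and r was between 0.860 and 0.968 once group means were subtracted. The genes closest to each member were picked by r over these same arrays, so a high r within groups is no separate support. Closest to Npnt were Itgad, a leukocyte integrin α chain (r = 0.991), the olfactory receptor genes Olfr1289 (r = 0.958) and Olfr267 (r = 0.926), 4930447A16Rik (r = 0.909) and Slfn8 (r = 0.909). Each of these 5 differed by between -0.15 and -0.09 between 100 pM E2 and vehicle. The SD over the 9 arrays was 0.73 for Egfl6, 0.15 for Itga8 and 0.10 for Npnt, against a median of 0.08 over all genes.

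The partners of the receptor were examined next. Itgb1, the β1 chain that completes α8β1, had 11.99, 12.01 and 12.00 in vehicle, 11.97, 12.03 and 12.03 at 10 pM and 12.04, 12.14 and 12.07 at 100 pM. Its 100 pM arrays were the highest, yet the difference from vehicle was 0.09 ± 0.04 (limma, adjusted p = 0.462) and from 10 pM 0.08 ± 0.04 (adjusted p = 0.537). Arrays at 100 pM lay above all vehicle arrays for 6.61% of all genes and above all 10 pM arrays for 5.89%. The list of 13 genes held Itgb1, other RGD ligands of α8β1 (fibronectin, vitronectin, tenascin C, osteopontin and latent TGF-β1), the Fras1 and Frem proteins with Grip1, which anchor nephronectin and each other in embryonic basement membranes, and Gdnf, Gfra1 and Ret, which act downstream in the kidney. Of these 12 were measured and 0 were called in any comparison, with 2 at an unadjusted p below 0.05 for 100 pM E2 against vehicle, 3 for 100 pM against 10 pM and 0 for 10 pM against vehicle. Over all genes 10.9%, 10.2% and 3.54% had such a p. The smallest p were those of Tgfb1 (0.19 ± 0.06 for 100 pM E2 against vehicle, adjusted p = 0.236) and Tnc, tenascin C (0.10 ± 0.04, adjusted p = 0.415). The median difference was 0.04, against 0.00 over all genes. Called in that comparison were 1.13% of all genes.

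Among 7 other RGD-binding integrin chains, such as αv and β3, 0 were called in any comparison, and their differences between 100 pM E2 and vehicle lay between -0.03 and 0.08. Itgb5 (0.08 ± 0.04, adjusted p = 0.553) and Itgav (0.07 ± 0.04, adjusted p = 0.519) had the smallest p. Of 14 measured genes of the intracellular adhesion complex, such as talin and vinculin, 0 were called either. Lims2, a PINCH adaptor, differed by -0.18 ± 0.06 (adjusted p = 0.267) and Zyx, zyxin, by 0.15 ± 0.05 (adjusted p = 0.290). Unadjusted p fell below 0.05 for 0 of the integrin chains and 2 of the adhesion complex genes at 100 pM against vehicle, for 1 and 4 at 100 pM against 10 pM, and for 0 of both lists at 10 pM against vehicle. The shares over all genes were 10.9%, 10.2% and 3.54%, and those of calls after adjustment 1.13%, 0.833% and 0%.

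**Figure D3:**
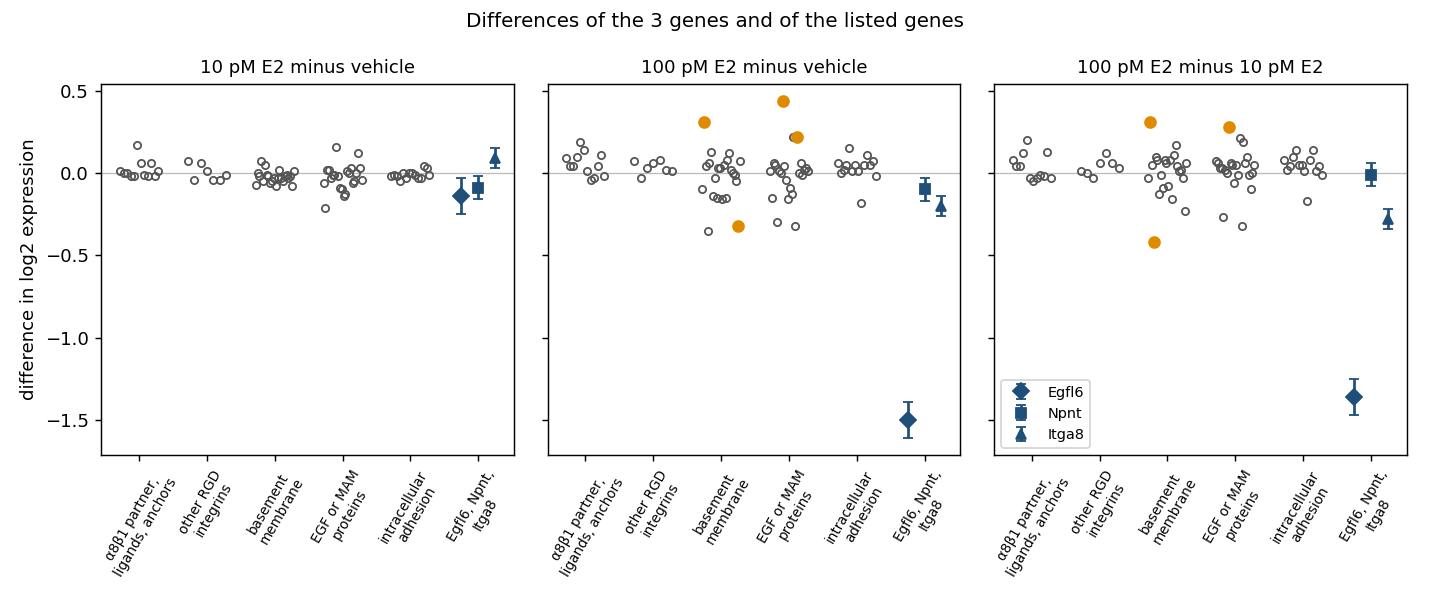
Difference in log2 expression (y axis) of each measured gene of 5 lists (circles) and of Egfl6, Npnt and Itga8 (filled blue symbols with the SE of the fit) in 3 comparisons. Orange circles passed an adjusted p of 0.05 over all genes and open circles did not. The listed genes lay between -0.42 and 0.44, against -1.5 and -1.36 for Egfl6 at 100 pM.

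The next list held basement membrane genes, whose products surround nephronectin. Of 22 measured, 1 rose and 1 fell at 100 pM E2 against vehicle, 1 rose and 1 fell against 10 pM, and 0 were called at 10 pM. Over all genes 0.446% rose and 0.687% fell against vehicle, and 0.226% and 0.607% against 10 pM. Unadjusted p fell below 0.05 for 9 of the 22 at 100 pM against vehicle and for 9 at 100 pM against 10 pM. At 10 pM against vehicle it did so for 0. The shares over all genes were 10.9%, 10.2% and 3.54%. Arrays at 100 pM lay below all vehicle arrays for 6 of the 22 and above them for 6 (5.89% and 6.61% of all genes). Lama2, the laminin α2 chain, had 9.11, 9.15 and 9.08 at 100 pM, against 8.82, 8.79 and 8.79 in vehicle. It rose by 0.31 ± 0.05 (limma, adjusted p = 0.0188), and by 0.31 ± 0.05 against 10 pM (adjusted p = 0.0239), where the arrays had 8.80, 8.89 and 8.71. Col15a1, a collagen of basement membrane zones, had 7.19, 7.16 and 7.21 at 100 pM, against 7.46, 7.5 and 7.54 in vehicle, and fell by 0.32 ± 0.04 (adjusted p = 0.0103). Lama4, the laminin α4 chain, had 8.95, 8.72 and 8.98 at 100 pM, against 9.34, 9.35 and 9.20 at 10 pM, and fell by 0.42 ± 0.07 in that comparison (adjusted p = 0.0390), while its difference from vehicle was -0.35 ± 0.07 (adjusted p = 0.0688). The median of the list was 0.01 against vehicle.

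These calls rest on few arrays. With each array left out in turn, Col15a1 kept its call in 8 of 9 fits and lost it without the third vehicle array (adjusted p = 0.0512). It was also lost with only the compared groups fitted (adjusted p = 0.0535) and in the analysis of variance (adjusted p = 0.0580), as were the calls of Lama2 and Lama4 (0.0527 to 0.198). Lama2 kept its call against vehicle in 5 of 9, losing it without any one of the vehicle arrays or the second 100 pM array, at an adjusted p of up to 0.0859. Against 10 pM it kept the call in 2 of 9, those without the second 10 pM or the third 100 pM array (otherwise up to 0.107). Lama4 kept its call in 1 of 9, that without the third 100 pM array (otherwise up to 0.173). Their directions did not change, with differences of 0.29 to 0.33 for Lama2 against vehicle and 0.27 to 0.36 against 10 pM, -0.34 to -0.30 for Col15a1 and -0.46 to -0.34 for Lama4.

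Of 22 measured secreted or membrane proteins that share EGF-like repeats or a MAM domain with EGFL6, 2 rose and 0 fell at 100 pM E2 against vehicle, 1 rose and 0 fell against 10 pM, and 0 were called at 10 pM, against the shares of all genes given for the basement membrane list. Arrays at 100 pM lay below all vehicle arrays for 5 of the 22 and above them for 3 (5.89% and 6.61% of all genes). Unadjusted p fell below 0.05 for 6 of the 22 at 100 pM against vehicle and for 5 at 100 pM against 10 pM. At 10 pM against vehicle it did so for 2. The shares over all genes were 10.9%, 10.2% and 3.54%. Just short of the threshold were Nrp2, a semaphorin and VEGF co-receptor (-0.32 ± 0.06, limma adjusted p = 0.0548), and Scube1, a secreted EGF-repeat protein (-0.30 ± 0.06, adjusted p = 0.0541), both named after their values were seen. Edil3, a secreted EGF-repeat protein with an RGD motif of its own that binds αv integrins, had 7.54, 7.60 and 7.55 in vehicle, 7.76, 7.71 and 7.69 at 10 pM, and 7.89, 8.05 and 8.06 at 100 pM. The 3 groups did not overlap. Edil3 rose by 0.44 ± 0.05 at 100 pM E2 against vehicle (1.36-fold, limma adjusted p = 0.00518), a call kept in 9 of 9 fits with an array left out and lost with only the compared groups fitted (adjusted p = 0.0607) and in the analysis of variance (adjusted p = 0.0580). Against 10 pM it rose by 0.28 ± 0.05 (adjusted p = 0.0492). With an array left out, that call was kept only without the first 100 pM array (otherwise up to 0.187). It was lost over all probesets (0.138), with the replicate block (0.106), with only the compared groups fitted (0.197) and in the analysis of variance (0.175). Quantile normalization and trend and robust moderation kept it. At 10 pM E2 it differed from vehicle by 0.16 ± 0.05 (adjusted p = 1). For 3.74% of all genes the 10 pM arrays lay above all vehicle arrays, and for 5.89% the 100 pM arrays lay above all 10 pM arrays.

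Ptprk, a receptor tyrosine phosphatase with a MAM domain, had 9.27, 9.24 and 9.32 at 100 pM, against 9.00, 9.11 and 9.04 in vehicle, and rose by 0.22 ± 0.04 (adjusted p = 0.0376). That call was kept in 1 of 9 fits, the one without the second vehicle array, with an adjusted p of up to 0.135 otherwise. It was also lost over all probesets (0.106), with the replicate block (0.0918), with only the compared groups fitted (0.159) and in the analysis of variance (0.0912). Quantile normalization and trend and robust moderation kept it. Near relatives in name were not called, among them Egfl7, an endothelial EGF-like protein (0.01 at 100 pM E2 against vehicle, adjusted p = 0.986), and Egfl8 (-0.15, adjusted p = 0.558). Egfl8 differed by -0.21 at 10 pM E2 against vehicle (adjusted p = 1, unadjusted p = 0.0276), which with Edil3 (unadjusted p = 0.0139) made 2 of the 77 measured listed genes with an unadjusted p below 0.05 at that dose. Egfl7 and Egfl8 were picked after their values were seen.

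**Figure D4:**
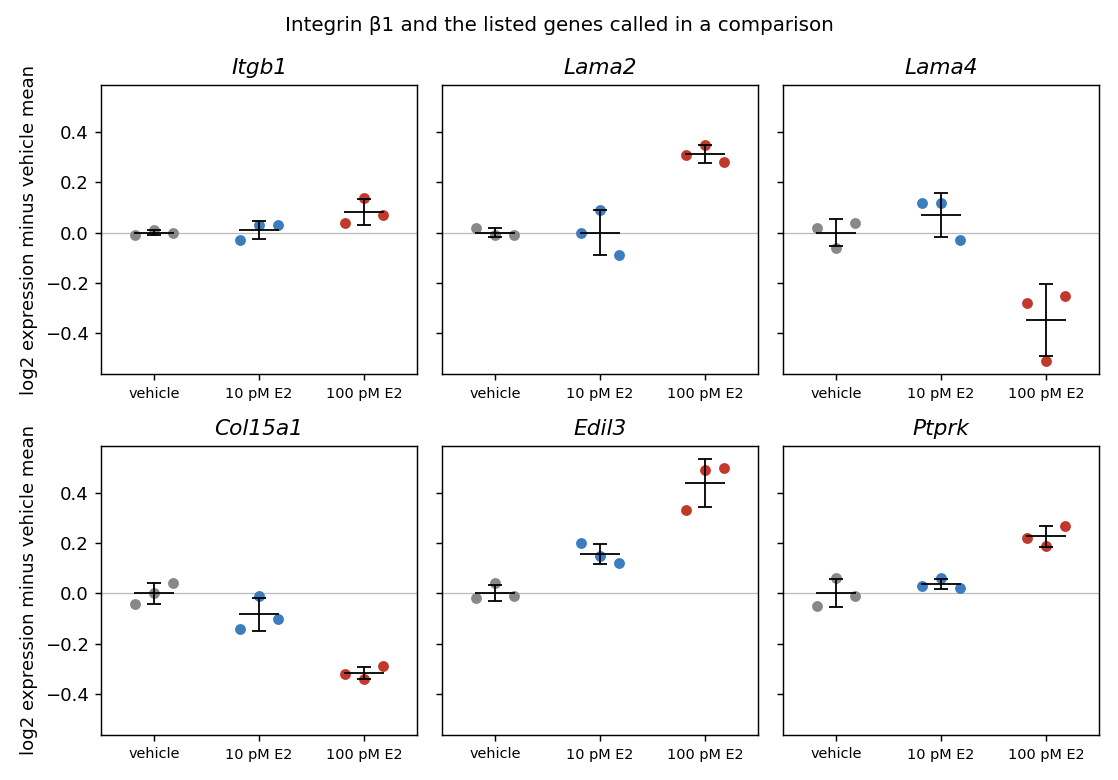
Log2 expression minus the vehicle mean of the same gene (y axis) for Itgb1 and the 5 listed genes called in a comparison, by group, from vehicle through 10 pM to 100 pM E2 (x axis). Each point is an array, and each bar gives a group mean with its SD (n = 3). At 100 pM the Edil3 arrays were at 0.33 to 0.50 and the Col15a1 arrays at -0.34 to -0.29.

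Array medians lay between 6.17 and 6.2 log2 units, and r between arrays was 0.9925 to 0.9941 within groups and 0.9918 to 0.9943 across them. The 10 mesenchymal markers had means of 8.33 to 13.57 and the 8 smooth muscle markers means of 6.01 to 13.38. The epithelial (4.99 to 7.48, 11 markers), macrophage (4.68 to 6.54, 10 markers) and endothelial markers (5.24 to 7.51, 9 markers) had lower ones than the mesenchymal markers. These scales differ between probesets, with no measured background to set them against. The mean level of the macrophage list was 5.71 to 5.87 in the vehicle arrays, 5.61 to 5.76 at 10 pM and 5.50 to 5.56 at 100 pM. The median difference of this list from vehicle was -0.14 at 10 pM and -0.16 at 100 pM, and it was -0.07 between 100 pM and 10 pM. For 9 of the 10 macrophage genes the 100 pM mean was below that of vehicle, against 47% of all genes. For 9 of the 10 it was also below that of 10 pM, against 49.4% of all genes. Lyz2 had the largest fall of the list at 100 pM against vehicle (-0.88, limma adjusted p = 0.155), and C1qb was called (-0.51). At 10 pM these 2 genes differed from vehicle by -0.13 and -0.18. The mesenchymal list was at 11.05 to 11.07 in vehicle, 11.06 to 11.08 at 10 pM and 10.95 to 11 at 100 pM, with 3 of 10 genes called lower against vehicle, where 0.687% of all genes were. The endothelial list was at 6.02 to 6.10 in vehicle, 6.02 to 6.04 at 10 pM and 6.00 to 6.01 at 100 pM, its genes Emcn (0.82) and Kdr (-0.98) being called in opposite directions at 100 pM against vehicle. The neural list (6 of 8 measured) was at 5.72 to 5.77 in vehicle, 5.73 to 5.85 at 10 pM and 5.78 to 5.83 at 100 pM. The ranges of the epithelial and smooth muscle lists overlapped between the groups, and of the epithelial genes Krt18 was called higher at 100 pM against 10 pM (0.57). The part of these shifts in the Egfl6 result was not tested, and in bulk RNA fewer cells of a type and less RNA per cell cannot be told apart.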

How the data were processed

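RNA from the cells was measured on Affymetrix Mouse Gene 1.0 ST arrays, 1 sample per array. The authors deposited 1 table of log2 expression values for 35556 probesets and 9 arrays, made with GCOS per the labels and Gene Expression Console per the methods. The summarization method and array background step are not given in the sources used here. A platform annotation gave 1 gene symbol for 21789 probesets, several for 1621 and none for 12146. The probeset of highest mean was kept per gene (19938 genes). limma 3.58.1 in R 4.3.3 (lmFit, eBayes defaults) was fitted to all 9 arrays with a mean per group. Tests were two-sided with Benjamini-Hochberg adjustment over all genes, called below 0.05. Intervals are unadjusted 95% intervals of that fit. The number of arrays limits precision.

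The members and gene lists were chosen with earlier results of these data known. Named from each list were up to 4 called genes, or the 2 of smallest p where none was called, with Itgb1 always. The 5 genes of highest Pearson r were named per member. No gene set test was run. Alternatives covered scaling, a filter on dim genes, the probeset rule, the moderation, array weights, a replicate block, the groups fitted, an analysis of variance, the threshold and each array left out. The analysis of variance was an unmoderated fit of the 3 groups with a t-test for each comparison and no F-test over the groups. Its counts are therefore per comparison and cannot be set beside those of the study's own analysis of variance.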

Additional observations from a re-analysis of the deposited data

How the results depend on the processing

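The differences of Egfl6 kept their direction in all 12 other settings and with each of the 9 arrays left out. With an array left out, 100 pM E2 differed from vehicle by -1.60 to -1.37 and from 10 pM by -1.46 to -1.23. For 10 pM against vehicle the range was -0.20 to -0.09. Settings that changed only the spread, the threshold or other genes could not move these differences. The 100 pM arrays lay 1.17 below the vehicle arrays and 1.08 below the 10 pM arrays. Leaving out an array could therefore not reverse the fall at 100 pM, and the kept direction is no separate support for it. In the same comparisons and the same fits with an array left out, Itga8 ranged over -0.25 to -0.16, -0.34 to -0.23 and 0.03 to 0.13. Npnt ranged over -0.14 to -0.02, -0.06 to 0.03 and -0.13 to -0.01. The Npnt difference between 100 pM and 10 pM turned to 0.03 without the first 10 pM array. The Itga8 difference of -0.28 between 100 pM and 10 pM passed the unadjusted threshold of 0.01 in the analysis of variance, and no other setting moved it past its threshold. Same-numbered samples showed little shared deviation from their group means (r of -0.11 to 0.20 over 9 pairs, 1 above 0.1). The value of 0.20 was that of the third 100 pM and vehicle arrays. With the other vehicle arrays, that 100 pM array had r of at most -0.012. With 3 arrays per group, such r cannot settle whether same-numbered samples shared a cell preparation. With the replicate block the Itga8 difference was -0.28 (adjusted p = 0.185), 1 gene was called higher at 10 pM against vehicle, and 1 listed gene higher and 0 lower at 100 pM against 10 pM.

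Counts of calls moved more than the members did, and the cause was not tested beyond the setting itself. At 100 pM against vehicle, 89 genes were called higher and 137 lower. The higher count was 47 over all probesets, 147 with trend and robust moderation, 6 with only the compared groups fitted, 302 and 18 in the analysis of variance at an unadjusted p below 0.01 and after adjustment, and 141 at an adjusted p below 0.10. The lower count was 214 without the dimmest 30% of genes, 72 over all probesets, 4 with the compared groups only, 346 and 12 in the analysis of variance, and 224 at 0.10. Of the listed genes, 3 were higher and 1 lower. The higher count was 1 over all probesets, 0 with the compared groups only, and 5 and 0 in the analysis of variance. The lower count was 4 after quantile normalization, without dim genes, with trend and robust moderation or at 0.10, 2 with array weights, 0 with the compared groups only, and 6 and 0 in the analysis of variance. At 10 pM against vehicle, the analysis of variance at an unadjusted p below 0.01 gave 66 genes higher and 29 lower, against 0 and 0 in limma.

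At 100 pM against 10 pM, 45 genes were called higher and 121 lower. The higher count was 80 without dim genes, 7 over all probesets, 90 with trend and robust moderation, 0 with the compared groups only, 236 and 1 in the analysis of variance, and 86 at 0.10. The lower count was 211, 23, 194, 1, 341 and 0, and 216 in the same order. Of the listed genes, 2 were higher and 1 lower. The higher count was 0 over all probesets, 0 with the compared groups only, and 5 and 0 in the analysis of variance. The lower count was 3 after quantile normalization, with trend and robust moderation or with array weights, 4 without dim genes or at 0.10, 2 with the mean of a gene's probesets, 0 over all probesets or with the compared groups only, and 5 and 0 in the analysis of variance. With an array left out, 100 pM against vehicle gave 40 to 116 genes higher and 48 to 143 lower (listed genes 1 to 3 and 0 to 2), and 100 pM against 10 pM gave 6 to 63 higher and 24 to 137 lower (0 to 1 and 0 to 2). The lowest of these gene counts came without the first vehicle array (40 and 48) and without the first 10 pM array (6 and 24). Leaving out any one of the vehicle or 10 pM arrays, or the second 100 pM array, moved at least 1 of the counts over all genes by over 1.5 times. Without the first or the third 100 pM array, only counts of listed genes moved by that much.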
